A study of Homo sapiens with 10 samples.

Results

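H460 cells that survived paclitaxel (PR cells) were compared with parental H460 cells by RNA sequencing of 2 PR and 3 parental libraries, chosen by their labels, which are 5 of the 10 libraries of the series. H460 is an established human lung cancer cell line that grows attached to the dish. The PR cells had been given 5 nM paclitaxel for 3 days and fresh medium for 3 more days, were re-plated, and were collected for RNA on day 8, and those that attached were taken as resistant survivors. The parental cells were H460 cells in the same flat (2D) culture without drug. Single libraries of cells that survived cisplatin (CR) or doxorubicin (DR) on the same schedule were used only to set the PR values beside those of other drugs, and tumor spheroid and A549 libraries were not used. All 5 libraries came from this 1 line in culture, and the labels do not say whether replicates were separate cultures, so p-values measure the spread between these libraries, which may be technical.

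Paclitaxel binds beta-tubulin inside microtubules and keeps them from shortening, so that the mitotic spindle cannot form properly and the spindle assembly checkpoint holds cells in mitosis. Cells can die there, or leave mitosis without dividing and stop in the next interphase, often with active p53 and its target p21. The transcripts followed here are therefore those of the drug's target, of the checkpoint and the cell cycle, of p53 and cell death, of drug transport, and of the factors that arrested cells release. In bulk RNA, fewer cells that express a gene and less RNA per cell cannot be told apart.

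The libraries were deep, and the PR libraries held reads on more genes than the parental ones. Reads counted on genes numbered 73958243 and 59499787 in PR replicates 1 and 2 and 65670034 to 73644667 in parental cells. In PR cells 25781 and 26133 genes had at least 1 read, against 21036 to 21603 in parental cells, 22720 in CR and 26745 in DR cells, and the PR library with the fewest reads had more genes with a read than any parental library. Keratins of simple epithelia were abundant in all 5 libraries (KRT8 at 380 to 447 FPKM, fragments scaled to transcript length and library depth, in parental and 283 and 419 in PR cells), while EPCAM was at most 0.114 FPKM and the surfactant genes SFTPA1 and SFTPB had no read. The labelled line carried keratin transcripts with little or none of the other epithelial and lung markers examined.

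PR cells differed from parental cells in 5455 of 19430 genes tested (28.1%), by edgeR's quasi-likelihood test on read counts with a Benjamini-Hochberg adjusted p under 0.05. Of the genes tested, 3391 (17.5%) were higher and 2064 (10.6%) lower in PR cells. Higher calls were frequent among scarce genes and lower calls among abundant ones. Among genes with a mean below 0.1 FPKM, 1075 were higher and 24 lower, and among those of at least 10 FPKM, 293 were higher and 1105 lower. The first of these counts is a description only, since 583 of the genes tested had reads in both PR libraries and in no parental one, and so passed the filter on low counts through the PR libraries. Of the 12054 genes tested with a mean of at least 1 FPKM, 8.01% were higher and 15.7% lower. Over all genes tested, the median change was 0.05 on the log2 scale. It was 2.14 below 0.1 FPKM and -0.40 at 10 FPKM or more. Scaling by library totals moved the median of all genes to 0.26 and the calls to 4217 higher and 1410 lower, and upper-quartile scaling moved them to 0.30 and to 4252 higher and 1347 lower, so all changes are relative to a scaling. Leaving out PR replicate 2 left 950 calls, leaving out PR replicate 1 left 2068, and leaving out parental replicate 2 left 3570. Single parental libraries were more than 2-fold apart in 349 to 789 genes on the FPKM + 1 scale and the PR libraries in 150, whereas a PR and a parental library were apart in 1301 to 2893. On the group means, 986 genes (2.12% of all genes in the table) were more than 2-fold higher in PR cells and 788 (1.7%) more than 2-fold lower. A permutation of 2 against 3 libraries cannot give a two-sided p below 0.1, so p-values come from the fit across all genes. Counts of list members below stand against 17.5% higher and 10.6% lower over all genes tested. Scarce genes move those shares, which were 8.01% and 15.7% at a mean of at least 1 FPKM. The first pair is therefore not matched in level to lists of abundant genes. Some list members, such as STMN4, TNFRSF10C and CCL2, had no parental read. They passed the filter on low counts through the PR libraries and could be called only higher.

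The leading rises were genes of secreted or surface proteins, and the leading falls were genes of mitosis. MMP1, a collagenase, was at 1.30, 1.03 and 0.478 FPKM in the parental libraries and at 219.6 and 363.7 in the PR libraries, a 312-fold difference of the means (log2 fold change 8.05, standard error 0.47, adjusted p = 0.000202). The gene lies at chr11:102789919-102798160 on GRCh38.p14. The other leading rises were PI3 (elafin, a protease inhibitor), the cytokine gene IL1B, COL7A1 (the collagen of anchoring fibrils), STC1 (the secreted hormone stanniocalcin), GPRC5C, RHCG (an ammonia channel) and SULF2 (a sulfatase that edits heparan sulfate), with means 31.8-fold to 65.9-fold higher in PR cells. NEK2, a centrosomal kinase, was at 19.1, 28.2 and 19.0 FPKM in parental and at 2.71 and 0.732 in PR cells (log2 fold change -3.88, standard error 0.56, adjusted p = 0.00267). KIF14, CENPF, DLGAP5, PCLAF, NUF2, ASPM and SPC24, which serve the spindle, the kinetochore or replicating chromatin, were the next largest falls, with log2 fold changes of -3.69 to -3.78. No parental value overlapped a PR value for these 16 genes, as the rule that chose them required.

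**Figure D1:**
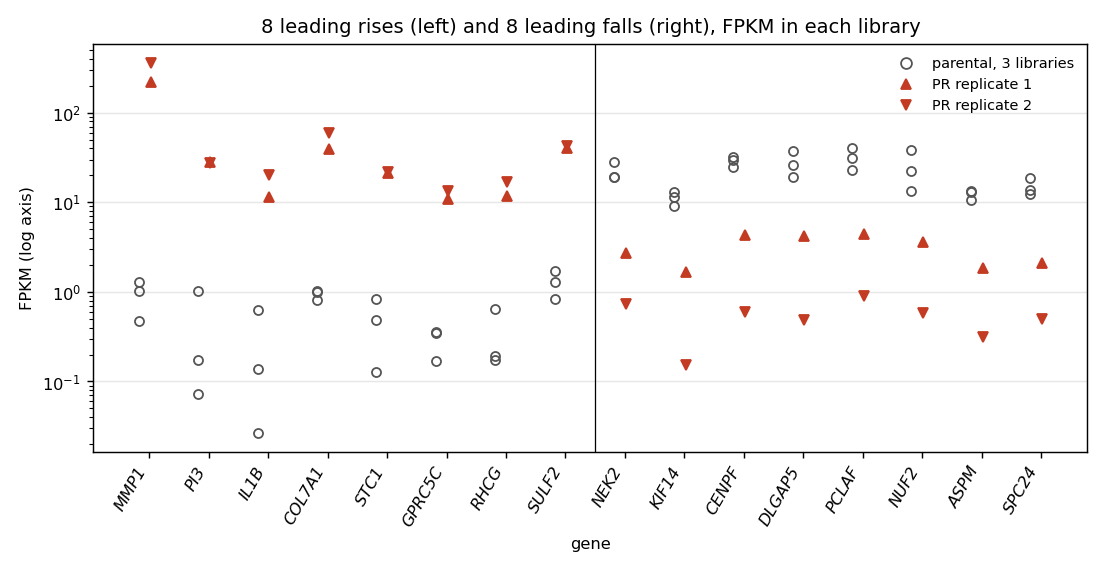
FPKM on a log axis for the 8 leading rises and the 8 leading falls, with 1 open circle for each of the 3 parental libraries and 1 triangle for each PR library. For every fall, PR replicate 2 lies below PR replicate 1, for example 0.732 against 2.71 FPKM for NEK2.

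Tubulin, the target of paclitaxel, was lower in PR cells in part of its genes. Of 21 tubulin genes, 16 had enough reads to be tested. Of these, 7 were lower (43.75%, against 10.6% of all genes tested) and none was higher. The median log2 fold change was -0.70 against 0.05 for all genes. Of the 4975 genes tested with a mean of at least 10 FPKM, 1105 were lower and 293 higher, with a median of -0.40. Both PR values lay below all parental values in 8 of the 16, against 17% of all genes tested. The summed level of the list was 4555, 3726 and 2810 FPKM in the parental and 2075 and 2482 in the PR libraries. TUBA1B, the most abundant alpha-tubulin gene here, was at 2137, 1705 and 1244 FPKM in parental cells and at 688 and 690 in PR cells (log2 fold change -1.53, standard error 0.29, adjusted p = 0.00619). Both PR values lay below all parental values, as they did for TUBB, the main beta-tubulin, at 640, 522 and 371 FPKM in parental and 294 and 343 in PR cells (log2 fold change -0.91, standard error 0.28, adjusted p = 0.0401). TUBB2B, TUBB4A and TUBB6, other beta-tubulins, were also lower, with log2 fold changes of -1.11, -1.46 and -0.80, and so were TUBG1, the gamma-tubulin that nucleates microtubules, and TUBE1.

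TUBB3, the neuronal beta-tubulin that has been linked to taxane resistance, did not pass the test. Its FPKM was 92.5, 73.3 and 63.5 in parental and 101.0 and 136 in PR cells, and both PR values lay above all parental values (log2 fold change 0.39, standard error 0.26, adjusted p = 0.275). TUBA4A had the same order of values, with 54.7 to 93.9 FPKM in parental and 94.2 and 151 in PR cells (log2 fold change 0.51, adjusted p = 0.223). TUBA1A, TUBA1C, TUBB2A and TUBB4B had log2 fold changes of -0.40, -0.84, -0.30 and -0.65 and did not pass it either. Tubulin genes are near-identical copies whose reads may be shared, so the split between them is uncertain. The calls of this list were fragile: 7 lower genes became 3 with library totals, upper-quartile scaling or without parental replicate 2, 4 lower and 1 higher without parental replicate 1, and 0 without either PR library.

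**Figure D2:**
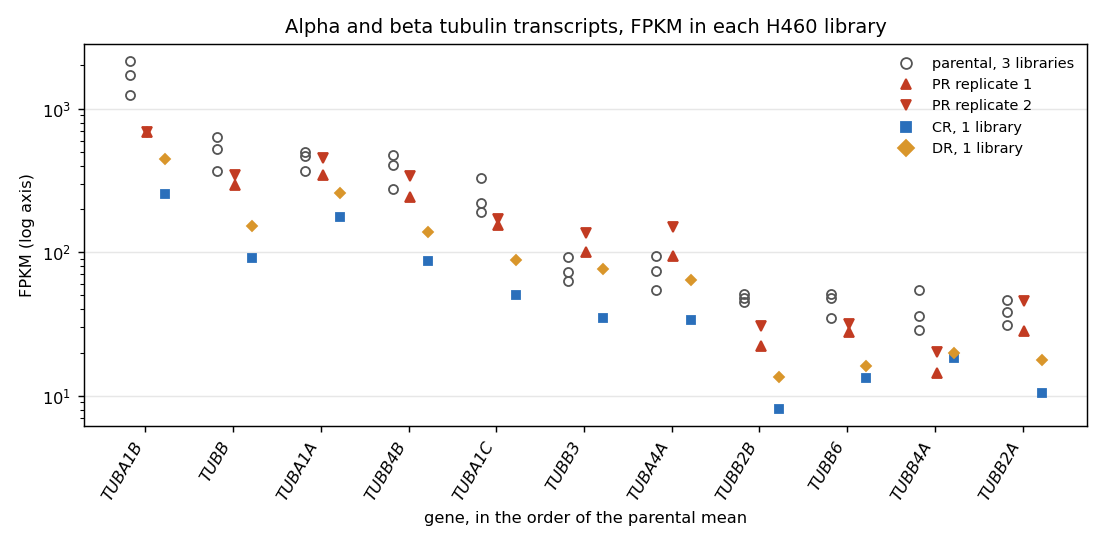
FPKM on a log axis of the 11 alpha and beta tubulin genes with a mean of at least 1 FPKM, in 3 parental (circles), 2 PR (triangles), 1 CR (square) and 1 DR (diamond) libraries. TUBA1B is at 688 and 690 FPKM in PR cells, between the parental values and those of CR (253) and DR (445) cells.

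Among 38 tested genes of proteins that act on microtubules, 9 were lower (23.7%, against 10.6% of all genes tested) and 4 higher (10.5%, against 17.5%), with a median log2 fold change of -0.48. At a mean of at least 1 FPKM, 15.7% of genes tested were lower and 8.01% higher. STMN1 encodes stathmin, which binds tubulin dimers and destabilizes microtubules. It was at 65.2, 121 and 47.9 FPKM in parental and at 10.4 and 3.70 in PR cells (log2 fold change -3.64, standard error 0.55, adjusted p = 0.00317). TPX2 and CKAP5, which build the spindle, were lower with log2 fold changes of -3.07 and -1.40, as were TBCA and TBCD, tubulin-folding factors, with -1.32 and -1.02. MAPT, which encodes tau and stabilizes microtubules, was at 1.37, 2.83 and 4.14 FPKM in parental and at 1.27 and 1.08 in PR cells (log2 fold change -1.46, adjusted p = 0.0391), and it lost its call in 12 of 17 alternative analyses. MAP4, the main structural microtubule protein outside neurons, was at 22.1 to 39.1 FPKM in parental and at 27.7 and 24.4 in PR cells, and the groups overlapped. TPPP, a microtubule-bundling protein gene, rose from 0.301 to 0.617 FPKM in parental to 3.70 and 1.82 in PR cells (log2 fold change 2.13, standard error 0.37, adjusted p = 0.00486), and ATAT1, the tubulin acetyltransferase, rose by a log2 fold change of 0.81. STMN3 and STMN4 were the other members that were higher, at 0.488 to 2.12 FPKM in PR cells. STMN4 had no read in parental cells and passed the filter on low counts through the PR libraries alone. Without PR replicate 2, 3 members were lower and 2 higher.

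The spindle assembly checkpoint and the kinetochore, on which paclitaxel's mitotic arrest rests, were lower nearly throughout. Of 30 genes, 28 were lower, against 10.6% of all genes tested, and the median log2 fold change was -3.08. MAD2L1, the core checkpoint inhibitor, was at 13.6, 15.6 and 8.47 FPKM in parental and at 2.62 and 0.699 in PR cells (log2 fold change -3.11, standard error 0.56, adjusted p = 0.00523). BUB1B, its partner BubR1, was at 23.5, 22.3 and 12.7 FPKM in parental and at 3.97 and 0.840 in PR cells, and TTK, the kinase that starts checkpoint signalling, was at 8.72 to 14.4 FPKM in parental and at 1.89 and 0.328 in PR cells. No PR value of these genes reached a parental one. CDC20, which the checkpoint restrains, was at 96.8, 69.0 and 48.7 FPKM in parental and at 17.4 and 2.33 in PR cells (log2 fold change -3.05, standard error 0.75, adjusted p = 0.0162). MAD2L1BP and ZW10 were the 2 genes that did not pass the test, with log2 fold changes of -0.19 and -0.66. All 20 mitotic kinesin and cytokinesis genes were lower, with a median of -3.26, among them AURKA, the spindle-pole kinase, at 80.1, 154 and 81.6 FPKM in parental and 14.5 and 7.30 in PR cells. This count was 20 of 20 under the 3 other scalings and on leaving out each of the 5 libraries.

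DNA replication genes were lower as well. All 33 passed the test, with a median log2 fold change of -2.35, and 19 without PR replicate 2. MCM3, a subunit of the replicative helicase, was at 68.3, 63.2 and 48.7 FPKM in parental and at 19.0 and 11.1 in PR cells (log2 fold change -2.21, standard error 0.33, adjusted p = 0.00296). PCNA, the sliding clamp, was at 218, 222 and 129 FPKM in parental and kept 99.3 and 88.2 in PR cells (log2 fold change -1.23). Among 31 cyclin, CDK and cell cycle transcription factor genes, 19 were lower and 2 higher, 10 were lower and none higher without PR replicate 2, and 1 was higher without PR replicate 1 or parental replicate 2. CCNB1, the mitotic cyclin, was at 157, 152 and 85.8 FPKM in parental and at 24.3 and 8.49 in PR cells, and CDK1, its kinase, at 81.3, 120 and 49.8 in parental and 16.0 and 3.54 in PR cells. Transcripts of the activators FOXM1, MYBL2 and E2F1 were lower by -2.98, -3.14 and -2.24 on the log2 scale. CCND1, the G1 cyclin D1, moved the other way, from 33.0, 17.3 and 17.1 FPKM in parental to 72.0 and 84.4 in PR cells (log2 fold change 1.56, standard error 0.33, adjusted p = 0.00836). CCND2 was the other higher member, at most 0.193 FPKM in PR cells. Of 14 nuclear envelope and chromatin genes linked to senescence, 9 were lower, with LMNB1, lamin B1, at 70.9, 59.9 and 45.1 FPKM in parental and 14.1 and 3.24 in PR cells, and 5 were lower without PR replicate 2. FUCA1 and HMGA2 were higher, neither without either PR library and 1 without parental replicate 2 or 3, and LMNA (log2 fold change -0.06) was not called.

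The PR libraries did not fall to the same level. Over the called-lower kinesin and cytokinesis genes, PR replicate 1 kept a median of 20.1% of the parental mean FPKM and PR replicate 2 kept 4.57%. For the checkpoint and kinetochore genes the medians were 21.4% and 4.16%, for the cyclin list 28.9% and 8.51%, and for the replication genes 29.2% and 15.8%. The remaining levels in PR replicate 1 were close to each other. Over the kinesin list the SD of the log2 ratio to parental cells was 0.372 in PR replicate 1 and 0.999 in PR replicate 2. PR replicate 1 was above PR replicate 2 in 20 of 20 kinesin and cytokinesis genes, 33 of 33 replication genes and 28 of 30 checkpoint and kinetochore genes, against 46.1% of the 12054 genes tested with a mean of at least 1 FPKM and 73.2% of those among them called lower. The same kinesin genes stood at a median of 6.98% of the parental mean in CR and 6.62% in DR cells.

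**Figure D3:**
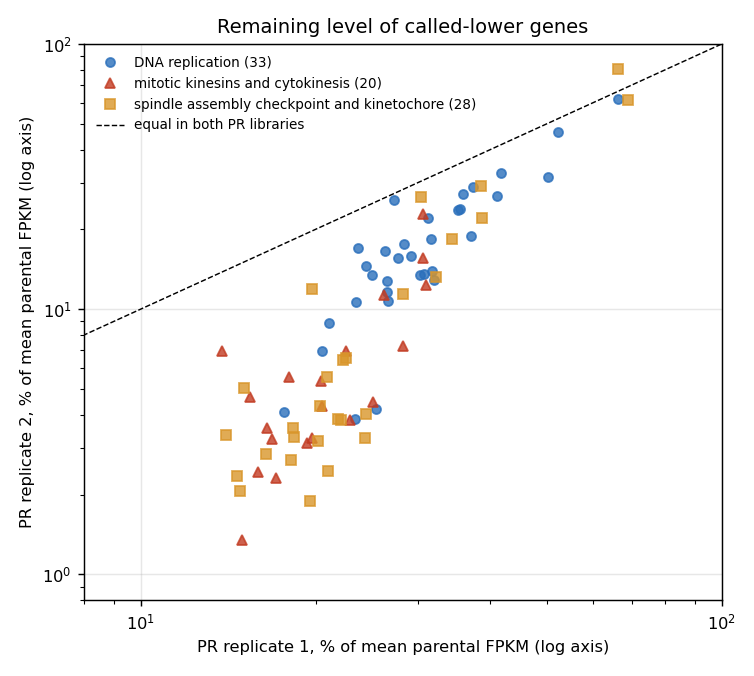
Remaining FPKM of each called-lower gene of 3 lists, as a percent of the mean of the parental libraries, in PR replicate 1 (x, log axis) and PR replicate 2 (y, log axis). Points below the dashed line of equality are lower in PR replicate 2, as are all 20 kinesin and cytokinesis genes (triangles) and all 33 replication genes (circles).

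The mitotic and the replication promoters held the CHR and E2F letters defined here at different shares, and 3 promoters are shown. CDC20 is on the checkpoint list and MCM3 on the replication list. CCNB2 is on the cyclin list, whose promoters are not among those counted below. They are RefSeq sequences of GRCh38.p14, 250 bases up to the start of the gene. Capitals mark the cell cycle genes homology region (CHR, TTTGAA) and the CCAAT box (CCAAT) in CCNB2 and CDC20, and the E2F letters (GCGGGAA) in MCM3, each in either orientation and with no overlap between them. CHR elements are bound by the DREAM and MuvB complexes and E2F sites by E2F proteins, which control these gene classes in dividing and arrested cells. The 3 were chosen after the motif search.
CCNB2 promoter, chr15:59104896-59105145, plus strand: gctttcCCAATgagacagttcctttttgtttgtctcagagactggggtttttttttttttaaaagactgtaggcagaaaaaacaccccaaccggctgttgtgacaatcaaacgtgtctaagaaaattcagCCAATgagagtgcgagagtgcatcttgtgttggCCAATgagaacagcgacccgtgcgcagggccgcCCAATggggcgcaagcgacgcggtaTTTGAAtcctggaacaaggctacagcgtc
CDC20 promoter, chr1:43358731-43358980, plus strand: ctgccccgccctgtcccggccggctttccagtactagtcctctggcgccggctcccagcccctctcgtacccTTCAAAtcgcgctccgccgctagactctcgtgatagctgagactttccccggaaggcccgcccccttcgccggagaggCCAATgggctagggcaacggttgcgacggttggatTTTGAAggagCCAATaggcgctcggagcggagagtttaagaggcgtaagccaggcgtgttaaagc
MCM3 promoter, chr6:52284743-52284992, minus strand: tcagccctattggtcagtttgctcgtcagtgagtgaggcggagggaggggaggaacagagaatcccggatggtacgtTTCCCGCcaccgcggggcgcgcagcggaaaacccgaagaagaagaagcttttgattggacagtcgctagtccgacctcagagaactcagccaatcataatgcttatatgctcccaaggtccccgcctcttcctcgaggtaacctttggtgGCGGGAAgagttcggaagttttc
In CCNB2 the CHR letters began 29 bases before the start of the gene, and the nearest CCAAT letters began 54 bases before it. Over the 300 bases searched on both strands, 250 before and 50 after the start, TTTGAA was found in 15 of 25 checkpoint and kinetochore promoters (60%), in 15 of 18 kinesin and cytokinesis promoters (83.3%) and in 1 of 29 replication promoters (3.45%), against 15.4% of all 27303 promoters in the table. GCGGGAA was found in 14 of 29 replication promoters (48.3%), in 4 of 25 checkpoint and kinetochore promoters (16%) and in 1 of 18 kinesin and cytokinesis promoters (5.56%), against 6.56% of all. CCAAT was found in 64.0%, 83.3% and 58.6% of the checkpoint, kinesin and replication promoters, against 35.7% of all. These matches describe letters, not bound sites.

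The p53 pathway was higher. Of 40 genes of the pathway, 28 were higher (17.5% of all genes tested) and none lower, with a median log2 fold change of 1.32, and 36 had both PR values above all parental values (41.9% of all genes tested). TNFRSF10C, a member with no read in parental cells, passed the filter on low counts through the PR libraries alone. CDKN1A, which encodes the CDK inhibitor p21, was at 33.0, 25.3 and 20.7 FPKM in parental and at 343 and 498 in PR cells (log2 fold change 3.73, standard error 0.29, adjusted p = 0.000496). MDM2, the ubiquitin ligase that p53 induces against itself, was at 14.1, 13.3 and 11.3 FPKM in parental and at 71.1 and 65.1 in PR cells (log2 fold change 2.33, standard error 0.23, adjusted p = 0.000975). The groups were far apart for both. GDF15, a secreted stress cytokine, was at 34.1, 13.8 and 21.8 FPKM in parental and at 381 and 643 in PR cells (log2 fold change 4.21, standard error 0.42, adjusted p = 0.000896). TP53I3, a quinone reductase, and SPATA18, which acts in mitochondrial quality control, were higher by 2.75 and 3.23 on the log2 scale. CCNG1 and PLK2, other p53 targets, had log2 fold changes of -0.54 and -0.05 and were not called. PIDD1, which is both a p53 target and the centrosome-bound platform that activates caspase 2, was at 1.55 to 2.53 FPKM in parental and at 7.15 and 6.65 in PR cells (log2 fold change 1.39, adjusted p = 0.00652). It was the 1 higher gene of 12 for centrosomes and tetraploidy, of which 5 were lower, among them PLK4, the centriole-duplication kinase, with -3.10. Without PR replicate 2, 14 of the 40 p53 pathway genes were higher and 2 of the 12 centrosome genes lower, and PIDD1 was not called without either PR library. Of the other CDK inhibitors, CDKN2C was lower with -2.22, CDKN1B was not called with 0.16, and CDKN2A and CDKN2B, the genes of p16 and p15, had no read in any of the 5 libraries.

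Among genes of cell death, BBC3, the decoy receptor gene TNFRSF10D and the receptor gene FAS were higher, and the shares called were near those of all genes for the BCL2 family. Of 14 tested BCL2 family genes, 2 were higher (14.3%, against 17.5% of all genes tested), BBC3 and BMF, which encode the killer proteins PUMA and BMF. At a mean of at least 1 FPKM, 8.01% of genes tested were higher and 15.7% lower. BBC3 was at 2.05, 2.17 and 2.82 FPKM in parental and at 6.44 and 10.2 in PR cells (log2 fold change 1.49, standard error 0.32, adjusted p = 0.00888). BMF was at 0.0254, 0.163 and 0.441 FPKM in parental and at 1.61 and 2.31 in PR cells. Without PR replicate 2 neither was called, and without PR replicate 1 or parental replicate 2 only 1 gene was. MCL1, whose protein is degraded during mitotic arrest, was at 92.8, 97.2 and 75.3 FPKM in parental and at 113 and 102 in PR cells (log2 fold change 0.05, standard error 0.24, adjusted p = 0.893), and its sign turned without PR replicate 1 (-0.065) or parental replicate 3 (-0.012). FBXW7, which encodes the ubiquitin ligase subunit that targets MCL1, was at 2.70 to 2.83 FPKM in parental and at 5.31 and 4.33 in PR cells without passing the test (log2 fold change 0.52, adjusted p = 0.12). BCL2, BCL2L1 (BCL-xL), BAX and BCL2L11 (BIM) had log2 fold changes of -0.62, 0.35, 0.49 and 0.31 and were not called. Of 20 tested death receptor, caspase and inhibitor genes, 6 were higher (30%, against 17.5% of all genes tested) and 2 lower (10%, against 10.6%). TNFRSF10D, a decoy receptor for TRAIL, was at 2.18, 1.93 and 1.81 FPKM in parental and at 24.9 and 28.5 in PR cells (log2 fold change 3.52, standard error 0.24, adjusted p = 0.000294). FAS and TNFRSF10B, death receptors, and CFLAR and BIRC3, which block caspase 8 and support survival signalling, were higher by 2.02, 1.15, 1.91 and 2.96 on the log2 scale. TNFRSF10C, another decoy receptor, was at 0.175 and 0.134 FPKM in PR cells with no read in parental cells. It passed the filter on low counts through the PR libraries alone. BIRC5 (survivin), which also serves mitosis, and CASP9 were lower. Without PR replicate 2, 4 were higher and 1 lower, and without PR replicate 1 or parental replicate 2, 1 was lower.

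Of the efflux pumps, ABCC1 and ABCC2 were higher and P-glycoprotein did not pass the test. ABCB1, the gene of P-glycoprotein, was at 0.255, 0.103 and 0.0646 FPKM in parental and at 0.892 and 0.332 in PR cells (log2 fold change 1.91, standard error 0.63, adjusted p = 0.0517). Both PR values lay above the parental ones, and the gene passed the test in 6 of 14 alternative analyses. ABCC1 and ABCC2, which encode multidrug resistance-associated proteins, were higher, ABCC1 at 22.4, 9.76 and 24.0 FPKM in parental and 53.7 and 48.9 in PR cells (log2 fold change 1.19, standard error 0.39, adjusted p = 0.0472) and ABCC2 at 50.6 to 64.9 in parental and 143 and 123 in PR cells (0.96, standard error 0.25, adjusted p = 0.0225). ABCC1 lost its call in 3 of 17 alternative analyses, among them the one without parental replicate 2. ABCC2 was not called on leaving out either PR library. ABCC1 and ABCB1 thus lay close to the threshold on either side of it. ABCC10, a taxane transporter, was at 1.75 to 2.62 FPKM in parental and at 3.91 and 3.93 in PR cells and was not called (log2 fold change 0.62, adjusted p = 0.129). CYP1B1, a cytochrome P450 of drug and estrogen metabolism, was at 51.6, 54.8 and 53.3 FPKM in parental and at 329.7 and 262 in PR cells (log2 fold change 2.24, standard error 0.24, adjusted p = 0.0013). The enzymes that metabolize paclitaxel in liver, CYP2C8 and CYP3A4, had no read in parental cells or PR replicate 1 and at most 0.0562 FPKM in PR replicate 2, and CYP3A5 was not called. NR1I2 and NR1I3, the xenobiotic receptors PXR and CAR, were called higher at 0.0513 to 0.197 FPKM in PR cells. In all, 5 of 11 tested genes of the list were higher, of which NR1I2 and NR1I3 passed the filter on low counts through the PR libraries alone, and 6 of 17 members were not tested. The count of higher genes was 1 without either PR library and 9 with upper-quartile scaling.

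Most secreted factors and NF-kappaB targets were higher. Of 32 tested genes, 25 were higher, against 17.5% of all genes tested, none was lower, and the median log2 fold change was 2.48. CXCL8, the neutrophil chemokine interleukin 8, was at 74.5, 94.8 and 61.0 FPKM in parental and at 444 and 1009 in PR cells (log2 fold change 3.00, standard error 0.34, adjusted p = 0.00146). IL6 was at 60.3, 72.9 and 108 FPKM in parental and at 423 and 718 in PR cells (log2 fold change 2.54, standard error 0.33, adjusted p = 0.00201). IL1B rose from 0.624, 0.137 and 0.0266 FPKM in parental to 11.6 and 20.3 in PR cells. The PR values of all 3 genes were well above the parental range, and PR replicate 2 was the higher of the pair. The protease gene PLAU and the growth factor genes INHBA and AREG were higher by 2.38, 3.20 and 2.68 on the log2 scale, and so were IGFBP4 and IGFBP7, binding proteins of insulin-like growth factors, by 3.21 and 3.13. NFKBIA, the inhibitor that NF-kappaB induces against itself, was at 28.0, 24.1 and 17.4 FPKM in parental and at 89.7 and 126 in PR cells. CCL2, a monocyte chemokine, had no read in any parental library and 381 and 419 reads in the PR libraries, at least 144-fold higher than a floor of 3 reads in each parental library. It passed the filter on low counts through the PR libraries alone. CXCL3, CXCL5, CCL20, HBEGF, IGFBP6, PLAUR and VEGFA were not called, with CXCL5 at 31.4 to 117 FPKM in parental and 47.6 and 51.4 in PR cells. PR replicate 2 was above PR replicate 1 in 24 of the 25 higher genes, against 78.2% of all 966 higher genes with a mean of at least 1 FPKM.

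**Figure D4:**
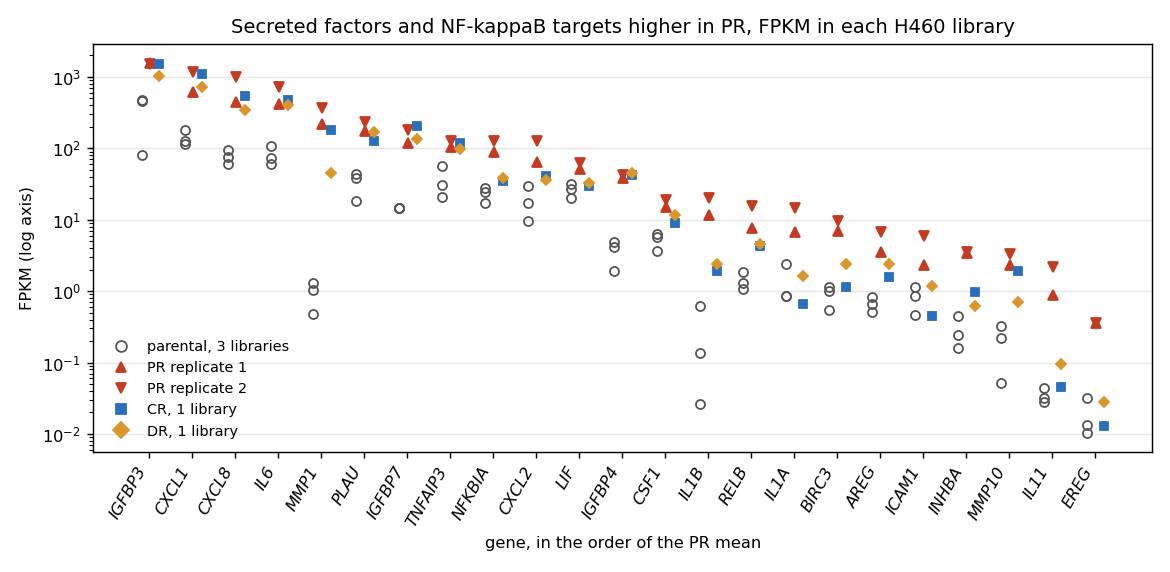
FPKM on a log axis of 23 higher genes of secreted factors and NF-kappaB targets, each of which has a value above 0 in each of the 7 libraries drawn, in parental (circles), PR (triangles), CR (square) and DR (diamond) cells. For CXCL8 the PR values are 444 and 1009 FPKM beside 544 in CR and 349 in DR cells, and for IL1B they are 11.6 and 20.3 beside 1.90 and 2.43.

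The CXCL8 promoter is shown for its AP-1 letters (TGANTCA) and NF-kappaB letters (GGGA, any 4 bases, then CC), in capitals, which began 137 and 117 bases before the start of the gene. AP-1 and NF-kappaB are transcription factors known to drive this gene. The capitals mark matches to these letters and not bound sites. The NF-kappaB letters require GGGA, so the near match ggaatttcc further along was not marked. Which of these stretches NF-kappaB binds was not tested, and the marked letters are not put forward as its site. The sequence is from RefSeq on GRCh38.p14 and was chosen after the motif search.
CXCL8 promoter, chr4:73740319-73740568, plus strand: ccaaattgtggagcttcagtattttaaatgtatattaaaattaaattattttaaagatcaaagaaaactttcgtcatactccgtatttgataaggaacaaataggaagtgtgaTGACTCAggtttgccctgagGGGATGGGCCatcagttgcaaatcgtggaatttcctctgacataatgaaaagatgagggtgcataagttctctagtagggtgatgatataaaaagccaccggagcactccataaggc
On both strands of the 300 bases searched, TGANTCA was found in 5 of 26 promoters of this list (19.2%) against 7.76% of all, and the NF-kappaB letters in 14 of 26 (53.8%) against 25.1% of all. The latter letters were also found in 16 of 32 promoters of the p53 pathway (50%), so they did not set the list apart. The promoters of MMP1 and CCL2 were not analysed here.

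Most matrix genes were higher, from scarce collagens to abundant fibronectin. Of those tested, 63.3% were higher and 10% lower, against 17.5% and 10.6% of all genes tested. At a mean of at least 1 FPKM, 8.01% of genes tested were higher and 15.7% lower. TNC and COL1A2, with log2 fold changes of 11.3 and 6.99, passed the filter on low counts through the PR libraries alone. They could be called only higher. Of 30 collagen, laminin and matrix genes, 19 were higher and 3 lower, with a median log2 fold change of 2.06, and without PR replicate 2 they were 10 and 0 and without PR replicate 1 they were 14 and 1. FN1, fibronectin, was at 467, 171 and 911 FPKM in parental and at 4115 and 3315 in PR cells (log2 fold change 2.58, standard error 0.58, adjusted p = 0.011). COL7A1 was at 0.81 to 1.03 FPKM in parental and at 39.5 and 58.7 in PR cells, and LAMB3, a chain of laminin-332, at 1.03, 0.318 and 0.568 in parental and 10.5 and 13.2 in PR cells (log2 fold change 3.96). COL1A1, the fibrillar collagen of connective tissue, was at 0.0848 to 0.193 FPKM in parental and at 6.51 and 6.26 in PR cells (log2 fold change 5.07, standard error 0.39, adjusted p = 0.000496). COL3A1, COL4A1 and COL4A2 were lower, by -1.94, -1.38 and -0.87. MMP2, a gelatinase that is not on the list, had no parental read and 616 and 501 reads in PR cells, at least 197-fold above the floor of 3 reads, and was named for being 1 of 4 such genes of at least 1 FPKM in both PR libraries, with CCL2, LINC02154 and LOC105373292. Of 15 integrin genes, 6 were higher and none lower, ITGA3 at 1.501, 1.34 and 2.31 FPKM in parental and 33.1 and 39.2 in PR cells (log2 fold change 4.14, standard error 0.32, adjusted p = 0.000525), and 3 were higher without either PR library, 4 without parental replicate 2, 8 with library totals, and 9 without parental replicate 3 or with upper-quartile scaling. The share of integrin genes called higher was 40%, against 17.5% of all genes tested and 8.01% of those with a mean of at least 1 FPKM. Of 20 targets of YAP and TEAD, which sense stretch and attachment, 2 were higher, NT5E and FJX1, with a median log2 fold change of 0.19. That share, 10%, stands against 17.5% of all genes tested and 8.01% of those with a mean of at least 1 FPKM. The count was 0 without either PR library, 1 without parental replicate 2, 3 with 1 lower without parental replicate 1, and 4 without parental replicate 3 or with library totals or upper-quartile scaling. CCN1 and CCN2, the most used of them, had log2 fold changes of 0.58 and -1.04 and were not called.

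Markers of other cell types were few and mostly near 0 beside these rises. The summed FPKM of 7 fibroblast markers was 1.30 to 6.00 in parental and 19.6 and 16.6 in PR cells, with COL1A1, COL1A2 and DCN higher, while THY1 had no read in PR cells and PDGFRA was at most 0.0199 FPKM. The 4 endothelial markers summed to 0.011 to 0.0451 FPKM in parental and 0.0675 and 0.096 in PR cells, with PECAM1 and VWF called higher and CDH5 at 0. The 6 leukocyte markers summed to 17.9 to 26.4 FPKM in parental and 42.4 and 61.7 in PR cells, nearly all of it CD68, a lysosomal membrane gene, which was higher, and CD14, with CD3E at 0. Of the 6 lung markers, NKX2-1 was called higher at 0.139 and 0.106 FPKM. COL1A2 and PECAM1 had no read in parental cells. Together with NKX2-1 they passed the filter on low counts through the PR libraries alone and could be called only higher. Without either PR library, 1 fibroblast marker and none of the endothelial, leukocyte or lung markers was called. The part of these transcripts in the rises was not tested.

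Lysosomal genes were higher in part, and cholesterol genes lower in part. Of 29 lysosomal genes, 12 were higher (41.4%, against 17.5% of all genes tested) and none lower, with a median log2 fold change of 0.59. PSAP, which encodes the saposins, was at 252, 242 and 294 FPKM in parental and at 997 and 1138 in PR cells (log2 fold change 1.78, standard error 0.25, adjusted p = 0.00238), and CTSD, cathepsin D, at 188, 110.3 and 166 in parental and 463 and 599.7 in PR cells (1.53, adjusted p = 0.00672). GLB1, the beta-galactosidase behind the senescence stain, was not called (log2 fold change 0.01). The count was 4 without PR replicate 1, 2 without PR replicate 2 and 7 without parental replicate 2, and 18 with upper-quartile scaling. Of 24 tested cholesterol genes, 12 were lower (50%, against 10.6% of all genes tested) and none higher, with a median of -0.85. ACAT2 and EBP were the lowest, EBP, a sterol isomerase, at 56.1, 58.8 and 40.5 FPKM in parental and 13.9 and 11.7 in PR cells (log2 fold change -2.24, standard error 0.27, adjusted p = 0.00167). The count of lower genes was 3 without PR replicate 1 and 2 without PR replicate 2. Of 21 tested genes of the integrated stress response, 5 were higher (23.8%, against 17.5%) and 7 lower (33.3%, against 10.6%). At a mean of at least 1 FPKM, 8.01% of genes tested were higher and 15.7% lower. The serine synthesis genes PHGDH, PSAT1 and PSPH and the asparagine synthetase gene ASNS were lower by -2.77, -1.83, -1.35 and -1.76, with PHGDH at 107, 97.1 and 112 FPKM in parental and 19.2 and 17.0 in PR cells, while ATF3, DDIT3 and STC2 were higher by 2.83, 1.30 and 2.90. With the form of library name as a covariate, ATF3 and DDIT3 did not pass the test (adjusted p = 0.0661 and 0.0728). Without PR replicate 1 the counts were 3 and 2, without PR replicate 2 they were 1 and 2, and without parental replicate 2 they were 1 and 6.

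Interferon-response genes were called at shares near those of all genes tested. Of 25 tested, 6 were higher (24%, against 17.5%) and 2 lower (8%, against 10.6%), with a median log2 fold change of 0.30. At a mean of at least 1 FPKM, 8.01% of genes tested were higher and 15.7% lower. CGAS and STING1, the sensor of cytosolic DNA and its adaptor, were not called (-0.35 and -0.13). IFIT3 rose from 1.92, 2.01 and 1.87 FPKM in parental to 7.95 and 10.0 in PR cells (log2 fold change 1.99, standard error 0.24, adjusted p = 0.00167), CCL5, a T cell chemokine, from at most 0.0343 to 2.06 and 3.06, and ISG15, IFIT2, IRF7 and IRF9 also rose. OAS3 fell from 16.6, 12.9 and 18.7 to 4.32 and 3.65 FPKM (log2 fold change -2.25), and IFI44L fell by 2.03 on the log2 scale. IFNB1 and IFNL1 had no read. The counts were 3 and 1 without PR replicate 2 and 7 and 6 without parental replicate 1. None of the 13 genes of the mitochondrial genome was called, with a median of 0.03.

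**Figure D5:**
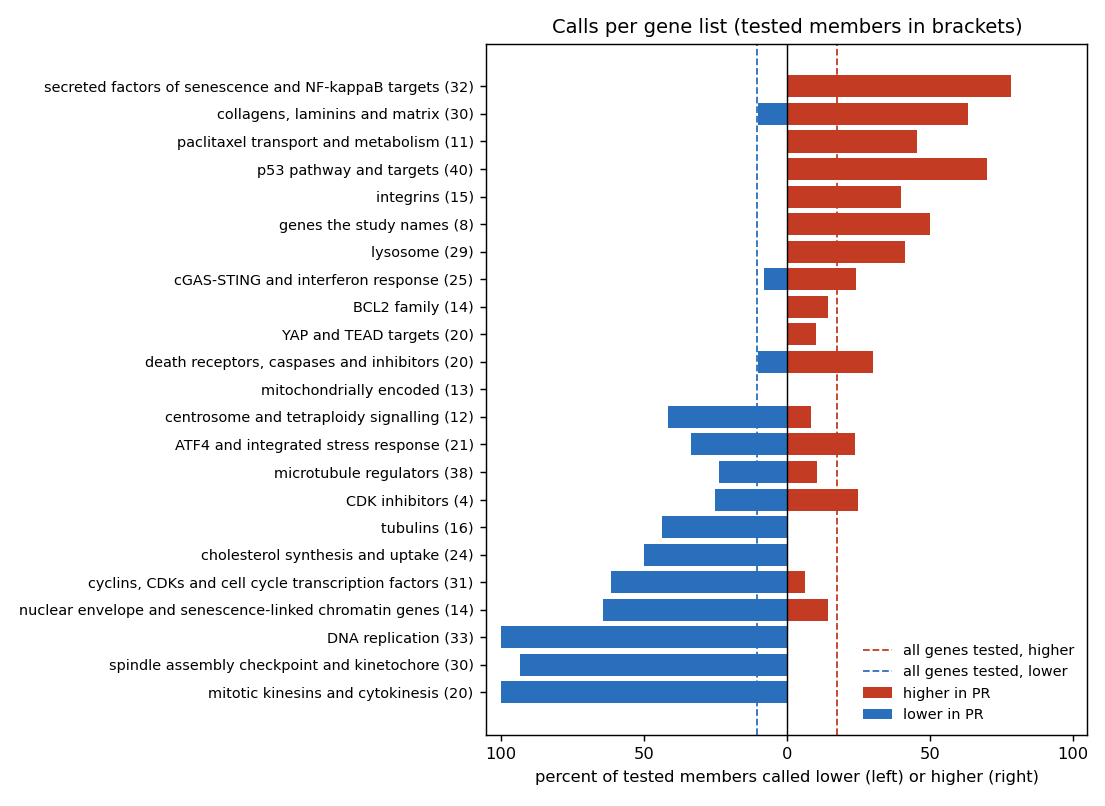
Percent of the tested members of each gene list called higher (red, right) or lower (blue, left) in PR cells, with the number tested in brackets and the lists in the order of their median log2 fold change. Dashed lines give the share of all genes tested, 17.5% higher and 10.6% lower, and the replication, kinesin and checkpoint lists reach 100%, 100% and 93.3% lower.

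Of 8 tested genes that the study names, 4 were higher in PR cells, and since the study chose 3 of them on these libraries their direction is not independent evidence. STC1 was at 0.128, 0.838 and 0.483 FPKM in parental and at 21.5 and 21.8 in PR cells. CHPF, which lengthens chondroitin chains, was at 12.3, 9.89 and 11.0 FPKM in parental and at 36.3 and 42.1 in PR cells (log2 fold change 1.58, standard error 0.23, adjusted p = 0.00297), and SEZ6L2, a transmembrane protein gene, at 3.21, 2.101 and 4.54 in parental and 26.9 and 31.3 in PR cells (2.88, standard error 0.35, adjusted p = 0.00162). In all 3 the PR values were far above the parental range. SEZ6, its relative, was the fourth, at most 0.0823 FPKM, with the largest log2 fold change of these genes, 7.16. At that level SEZ6 passed the filter on low counts through the PR libraries alone and could be called only higher. SMARCA4 and PAF1, chromatin and transcription regulators, had log2 fold changes of -0.77 and -0.50 and were not called.

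Set beside the survivors of the other drugs, PR cells differed in no gene at an adjusted p under 0.05 by edgeR (0 of 19770), in a fit of 2 PR against 1 CR and 1 DR library in which the parental libraries only add to the estimate of the spread. An unadjusted p under 0.05 was reached by 2479 genes (12.5%). DESeq2 called 355 genes, 289 higher and 66 lower in PR cells, limma on log2(FPKM + 1) called 101, of which 98 were higher, edgeR without a filter on low counts called 509, and edgeR without parental replicate 1 called 66. Tubulins were among the genes with small unadjusted values, with 10 of 16 tested at p under 0.05, and all 10 were higher in PR cells than in CR and DR cells. TUBB was at 294 and 343 FPKM in PR cells and at 90.8 in CR and 153 in DR cells (log2 difference 1.20, standard error 0.32, adjusted p = 0.186). In the secreted factor list 14 of 32 reached an unadjusted p under 0.05. CCL2 was at 6.08 and 8.46 FPKM in PR cells against 0.314 in CR and 0.397 in DR cells (log2 difference 4.14, standard error 0.46, adjusted p = 0.113), and IL11 at 0.880 and 2.17 against 0.0461 and 0.0964 (4.17, adjusted p = 0.113). COL1A1 was at 6.51 and 6.26 FPKM against 0.783 and 1.41. OAS1 went the other way, with 68.9 and 80.4 FPKM in PR cells against 165 in CR and 188 in DR cells (log2 difference -1.41, adjusted p = 0.129). CDKN1A, at 343 and 498 FPKM in PR cells, was at 654 in CR and 404 in DR cells (log2 difference -0.55, standard error 0.32, adjusted p = 0.509). These genes were chosen after their values were seen, and with 1 library each CR and DR cells have no replicate. The CR and DR libraries have names in the hyphenated form, and of the PR libraries only replicate 2 does. The part of this difference in the comparison was not tested.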

How the data were processed

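RNA sequencing of H460 cells in 2D culture gave 3 parental and 2 PR libraries, with 1 CR and 1 DR library beside them. Per the submitters' processing notes, the tools were bcl2fastq 1.8.4, Trimmomatic, HISAT2 2.1.0 and StringTie 2.1.3b with GRCh38. The authors deposited 1 table of 46427 genes with a read count, FPKM and TPM per gene and library. How reads shared by several genes were assigned is not given in the sources used here. Read counts were tested with edgeR 4.0.16 (quasi-likelihood F test, TMM scaling, Benjamini-Hochberg adjustment over all genes tested, threshold 0.05). DESeq2 1.42.0 and limma 3.58.1 on log2(FPKM + 1) or log2(FPKM + 0.1) were alternatives, as were other scalings, filters and left-out libraries. FPKM values are printed, and folds of FPKM are not TMM-scaled, so they are larger than the fitted change for rises and smaller for falls. TPM was not tested.

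Counts were simulated for the PR against parental comparison with 19430 genes, of which 100 were changed 4-fold and 100 changed 2-fold. Of these, 66% and 7% were recovered, and 9 of 82 calls were false (11.0%). The data gave 5455 calls (28.1% of genes tested), a far larger share than was changed in the simulation. The simulated rates therefore do not carry over to those calls. Named genes were the 8 largest changes in each direction with FPKM ranges apart and a mean of at least 10 FPKM, up to 3 members per list and direction by adjusted p, and a fixed set of drug target, checkpoint, death and transport genes. Other genes named were chosen after their values were seen. The members and all lists were chosen with earlier results of these data known. Promoters are RefSeq, GRCh38.p14. A few members of the lists are counted but not reported here by name.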

Additional observations from a re-analysis of the deposited data

How the results depend on the processing

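The count of 5455 genes called between PR and parental cells was 2742 with genes of at least 1 FPKM in at least 2 libraries, 2773 with limma on log2(FPKM + 0.1) and 3026 with limma on log2(FPKM + 1), and ranged from 950 to 6661 on leaving out single libraries. The alternatives moved how many genes passed, and the cause was not tested. Genes were higher in 3391 calls and lower in 2064, in 4252 and 1347 with upper-quartile scaling, and in 4217 and 1410 with library totals. The 1774 genes more than 2-fold apart on FPKM + 1 became 5614 with a pseudocount of 0.1, 728 when every parental library had to be passed by both PR libraries, and 2682 between the libraries named in the hyphenated form, an alternative chosen after seeing the data, with a range of 1499 to 2230 on leaving out single libraries. The 0 calls of PR against CR and DR cells became 355 with DESeq2, 101 with limma on log2(FPKM + 1), 509 without a filter on low counts, and 0 to 66 on leaving out single libraries. The log2 fold change of MCL1, 0.05, turned to -0.024 with the replicate block and to -0.012 for replicates 1 and 2 without it, and ranged from -0.065 to 0.157 on leaving out single libraries. The replicate numbers pair only 2 libraries of each group, with a correlation of 0.154 across 13180 genes, and do not show pairing by design. The replicate block, fitted to all 5 libraries, gave 6362 calls of 19430 genes tested, and replicates 1 and 2 without it gave 6661 of 19179, so these counts differ in more than the block. The block took the call from 6 of 128 named genes, DDIT3 among them (adjusted p = 0.062), and gave it to 4. The form of library name as a covariate gave 3785 calls and took the call from 13 named genes. Pairing the same-numbered libraries gave 2137 genes more than 2-fold apart, which was also chosen after seeing the data.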

Other observations

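Part of the histone genes were higher in PR cells. Of 66 histone symbols, listed after the data were seen, 41 were tested, 22 were higher and 2 lower (H3C7 and H3C15), against 17.5% and 10.6% of all genes tested, and 17 did not pass the test, with a median log2 fold change of 1.59 against 0.05 for all genes tested. Their summed level was 87.1, 102.5 and 72.4 FPKM in parental and 287.1 and 387.3 in PR cells, beside 431.2 in CR and 418.0 in DR cells. H1-2, a linker histone gene, was at 6.93, 12.3 and 4.39 FPKM in parental and at 73.7 and 119.7 in PR cells (log2 fold change 3.40, adjusted p = 0.00146). H4C8 and H2BC21 were higher by 3.70 and 3.37 on the log2 scale, and H2BC12 was not called (0.57, adjusted p = 0.108). Histone genes are near-identical copies, so the split of reads between them is uncertain.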
